A study of Mus musculus with 6 samples.

Results

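Genes of the cell cycle machinery were described in otic vesicles, the sacs of epithelium that become the inner ear, dissected from mice at embryonic day 11.5. The set was defined by name, as 38 genes for cyclins, cyclin-dependent kinases, replication factors, mitotic regulators and inhibitors, and was read from the probe sets that the platform annotation assigns to a single symbol. This gave 88 of 45037 probe sets, for 36 of 18193 genes. Ccnb1 and Trp53 were not analysed here. RNA came from 3 pools of Mest-KO embryos, conditional knockouts in which both functional copies of the transcription factor gene Tbx1 are lost from cells with T-Cre activity, and from 3 pools of control embryos, which carried T-Cre and were conditional heterozygotes for Tbx1. T-Cre acts in early mesoderm, which gives rise to tissue around the vesicle and not to its epithelium, and both groups carried it. Each array held the left and right ears of 3 embryos of the same genotype, dissected with dispase, and arrays of one group are labelled as biological replicates. The comparison asks what loss of Tbx1 in mesoderm does to RNA levels in the dissected vesicle.

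A cell that commits to division passes from G1 to S phase when D-type cyclins with Cdk4 or Cdk6, and then E-type cyclins with Cdk2, release E2F transcription factors from their repressors. E2F factors switch on genes for origin licensing, DNA synthesis and nucleotide supply, and a later wave of genes for mitosis is switched on in G2 through promoter elements known as CHR (cell cycle genes homology region) and through the CCAAT box bound by the factor NF-Y. Inhibitors of the Cip/Kip and Ink4 families hold the kinases in check. The otic vesicle is a growing epithelium at this stage, from which neuroblasts leave to form the ganglion of the inner ear.

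The promoters of 5 of these genes are shown, because they hold matches to the E2F element in replication genes and to the CHR and CCAAT elements in mitotic genes. Cdk4, Cdk6, Ccne1, E2f1, Tyms, Birc5 and Cdkn1a had no match to any of these elements in the windows searched. Each line gives the 250 bases before the start site, 5′ to 3′ on the strand of the gene, from RefSeq (GRCm38.p6), with matches in capitals. Mcm6 (chr1:128359706-128359955, minus strand), Mcm5 (chr8:75109259-75109508, plus strand) and Cdc6 (chr11:98907901-98908150, plus strand) are replication genes. Cdk1 (chr10:69352913-69353162, minus strand) and Top2a (chr11:99024190-99024439, minus strand) are genes of G2 and mitosis.
Mcm6: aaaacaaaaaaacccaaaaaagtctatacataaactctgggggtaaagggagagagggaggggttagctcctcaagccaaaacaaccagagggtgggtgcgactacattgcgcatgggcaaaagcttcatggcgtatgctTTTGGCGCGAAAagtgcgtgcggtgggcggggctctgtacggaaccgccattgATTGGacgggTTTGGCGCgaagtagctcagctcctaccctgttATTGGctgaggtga
Mcm5: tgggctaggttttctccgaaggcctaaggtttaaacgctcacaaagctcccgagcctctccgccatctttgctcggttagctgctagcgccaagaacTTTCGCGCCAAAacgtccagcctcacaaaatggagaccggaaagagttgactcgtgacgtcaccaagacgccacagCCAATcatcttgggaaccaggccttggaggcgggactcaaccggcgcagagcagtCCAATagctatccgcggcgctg
Cdc6: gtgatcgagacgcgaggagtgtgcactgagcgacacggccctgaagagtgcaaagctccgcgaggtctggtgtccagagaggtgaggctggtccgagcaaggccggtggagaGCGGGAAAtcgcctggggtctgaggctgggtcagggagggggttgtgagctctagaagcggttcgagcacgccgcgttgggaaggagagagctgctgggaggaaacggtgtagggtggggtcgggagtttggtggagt
Cdk1: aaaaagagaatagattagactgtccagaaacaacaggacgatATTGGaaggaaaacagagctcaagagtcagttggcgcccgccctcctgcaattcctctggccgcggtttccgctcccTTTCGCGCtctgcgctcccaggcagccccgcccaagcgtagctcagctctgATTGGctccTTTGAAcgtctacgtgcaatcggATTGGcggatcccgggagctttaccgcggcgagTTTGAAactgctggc
Top2a: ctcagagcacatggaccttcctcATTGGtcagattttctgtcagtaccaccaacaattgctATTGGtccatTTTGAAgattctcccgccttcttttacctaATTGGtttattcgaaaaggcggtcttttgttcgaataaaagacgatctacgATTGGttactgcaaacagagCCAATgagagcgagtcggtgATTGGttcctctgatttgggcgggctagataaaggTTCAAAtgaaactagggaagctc
In Mcm6 the E2F matches start at -110, -106 and -47 relative to the start site, and the first pair overlaps within a single run. In Mcm5 they start at -153 and -149, again overlapping, and in Cdc6 at -138. The Cdk1 promoter has an E2F match at -131, CHR matches at -71 and -15, and 3 CCAAT boxes, while Top2a has CHR matches at -179 and -23 and 6 CCAAT boxes. All other capitals in Mcm6 and Mcm5 are CCAAT boxes.

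The search covered 300 bases of each promoter, 250 before and 50 after the start, on both strands. The E2F motif was TTTCCCGC, TTTCGCGC, TTTGCCGC or TTTGGCGC, the CHR motif was TTTGAA, the CCAAT box was CCAAT, and overlapping matches counted separately. A window was found for 30 of the 36 genes, the others being Ccna2, Aurkb, Ccnd1, Ccnd2, Mcm4 and Ccne2. An E2F match was present in 6 of 11 replication genes (Cdc6, Cdt1, Mcm3, Mcm5, Mcm6 and Mcm7), in 1 of 6 genes of G1 (Cdk2), in 1 of 10 genes of G2 and mitosis (Cdk1) and in 0 of 3 inhibitors. It was present in 4.77% of the 10072 genes tested on the arrays that had a window, and in 2.26% of all 32851 promoter windows. A CHR match was present in 8 of 10 genes of G2 and mitosis (Aurka, Bub1b, Ccnb2, Cdc20, Cdk1, Mki67, Plk1 and Top2a) and in 1 of 11 replication genes (Mcm2), against 14.0% of the genes tested and 17.9% of all windows. The CCAAT box was present in 9 of 10 genes of G2 and mitosis and in 8 of 11 replication genes, against 43.1% of the genes tested and 37.4% of all windows. A match is a run of letters and not evidence of binding.

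**Figure D1:**
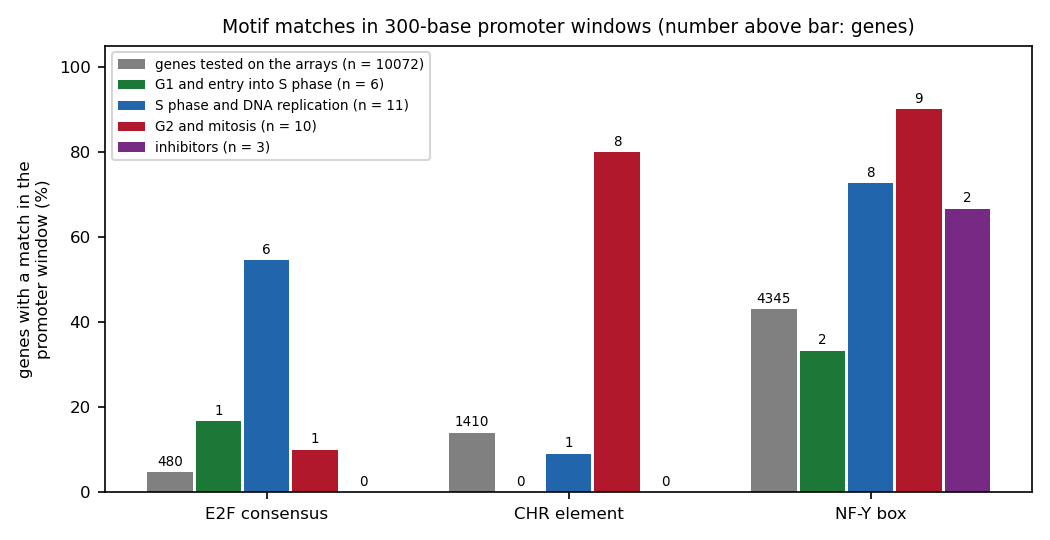
Share of genes (percent, bars from 0) with at least 1 match in the 300-base promoter window, for the genes tested on the arrays (grey) and for each phase of the cell cycle genes (colours), with the number of genes above each bar. The E2F consensus stands out in 6 of 11 replication genes and the CHR element in 8 of 10 genes of G2 and mitosis.

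Some values bear on the arrays as a whole. Tbx1, the targeted gene, had intensities of 910, 704 and 713 in the Mest-KO pools and 898, 690 and 766 in the controls, a log2 difference of -0.03 (SE 0.165) with an exact two-sided permutation p of 1, and a design of 3 against 3 cannot go below 0.1. Its loss was directed at mesoderm, and where its probes lie relative to the deletion is not known here. The labels are therefore not checked by it. Xist was at 16.1 in Mest-KO 1 and from 2331 to 5034 in the other pools, and the Y-linked Eif2s3y was at 12.1 in control 2 and from 1373 to 2663 in the others, so each of these 2 pools held embryos of a single sex. The array Mest-KO 3 had a first principal component score (33.1% of the variance) of 36.4, against -10.3 to -1.77 for the others. Markers of otic epithelium were measured for 15 of 16 genes, among them Oc90 at 11000 to 12400 and Sox10 at 4320 to 5320 over the 6 arrays, with summed intensities from 43570 to 44270 in control and from 40410 to 44160 in Mest-KO. The 15 of 16 periotic mesenchyme markers above the filter summed to between 4352 and 7836 in control and between 4732 and 9358 in Mest-KO, with 10 of 15 higher in Mest-KO and a median difference of 0.415, and limma called 0 of them at an adjusted p under 0.05 (2 had an unadjusted p under 0.05, Snai2 higher and Lum lower). Of 10 endothelial markers 3 were above the filter, while Cdh5, Pecam1 and Kdr were among those that were not. These 3 summed to 225.5 to 247.6 in control and 243.9 to 355.7 in Mest-KO, all 3 were higher in Mest-KO with a median of 0.287, and 0 passed the test in limma, at the adjusted or the unadjusted threshold. Red blood cell markers (6 of 10 above the filter) summed to 25270 to 28340 in control and 24190 to 27790 in Mest-KO. Ganglion neuron markers (13 of 13) summed to 8566 to 9126 in control and 8935 to 9251 in Mest-KO. The brightest of them, which weigh most in these sums, were Isl1, at 4470 to 5100 over the arrays, and Neurod1, at 994 to 1940. The log2 differences of the 13 markers were positive for 6 genes and negative for 7, with a median of -0.014. By limma 0 of these 13 had an adjusted p under 0.05. The unadjusted p was under 0.05 for 2, Neurod1 (0.57) and Elavl3 (0.38), each with more signal in Mest-KO.

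The RNA levels of the cell cycle genes were close to each other in the 2 groups. All 36 genes had a probe set above the filter on dim signals, 0 of 36 passed the test at an adjusted p under 0.05 (limma, Benjamini-Hochberg over 12462 genes, smallest adjusted p 0.909), and 1 of 36, Ccna2, had an unadjusted p under 0.05. Over all genes tested limma called 0 (0%) at the adjusted threshold, and 641 (5.14%) at the unadjusted one. The 1 gene was higher in Mest-KO, where 2.23% of all genes tested were higher and 2.91% lower at that threshold. Of the 36 genes 16 were higher and 20 lower in Mest-KO, where 49.1% of all genes were higher, with a median log2 difference of -0.026 against -0.003 over all genes, and the values ran from -0.27 (Tyms) to 0.39 (E2f1). Throughout, levels are log2 intensities after quantile normalization, each difference subtracts control from Mest-KO and carries the SE of the limma fit, and n = 3 arrays per group. Values for further probe sets of a gene come from a fit over all probe sets. The 95% confidence interval of the difference, taken gene by gene, lay within 1.5-fold in either direction (0.58 in log2 units) for 33 of 36 genes, and for 73.2% of all genes tested. The exceptions were E2f1, Tyms and Cdkn2c. The spread between arrays was small for these genes, with a median residual SD of 0.108 against 0.153 over all genes. The other cell cycle genes had 0.118, and the 36 genes were also brighter than the average gene, with a mean level of 11.03 to 11.10 over the arrays against 9.15 to 9.20. In pooled tissue RNA, fewer cells of a kind and less RNA per cell cannot be told apart.

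**Figure D2:**
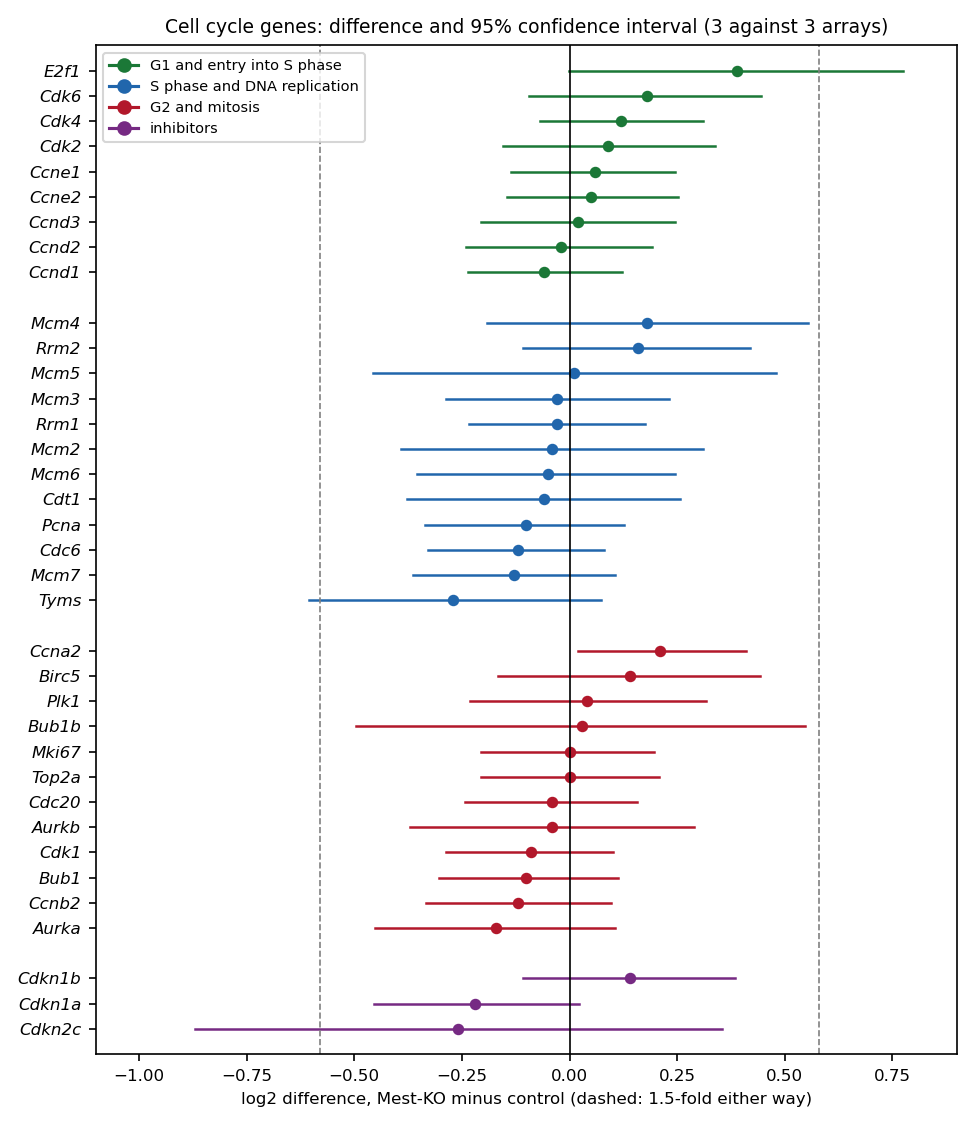
Log2 difference (Mest-KO minus control, horizontal axis) of each of the 36 cell cycle genes with its 95% confidence interval from limma, grouped by phase (colours), with dashed lines at 1.5-fold either way. The intervals of 33 genes stay between the dashed lines, and that of Ccna2 is the single one that does not reach 0.

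Of the 9 genes of G1 and entry into S phase, 7 were higher and 2 lower in Mest-KO, none passed the test, and the median difference was 0.055. E2f1 encodes a transcription factor that activates S phase genes and is itself one of its targets. Its level was 8.72, 8.99 and 9.23 in the Mest-KO pools and 8.60, 8.42 and 8.77 in the controls. The groups overlapped, since Mest-KO 1 lay below control 3. The difference was 0.39 (SE 0.16), with an interval from -0.002 to 0.774 and a limma adjusted p of 0.909. A second probe set of E2f1 differed by -0.01 (SE 0.22), so the higher value was seen at the brighter probe set and not at the other.

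The D-type cyclins, which respond to growth signals, lay close together. Ccnd1 was at 13.19, 13.15 and 13.17 in Mest-KO and 13.24, 13.26 and 13.19 in control, a difference of -0.06 (SE 0.0739). Ccnd2 was at 12.66, 12.45 and 12.61 in Mest-KO and 12.62, 12.57 and 12.60 in control, a difference of -0.02 (SE 0.0893). Ccnd3 differed by 0.02 (SE 0.0935). At these probe sets the values of all 3 genes overlapped between the groups, with intervals that ran no lower than -0.24 and no higher than 0.246. Further probe sets of Ccnd1 gave 0.18 (SE 0.0958), without overlap, and 0.13. The 7 of Ccnd2 ran from -0.03 to 0.35, and the second of Ccnd3, a dim one, gave -0.41 (SE 0.35). Their kinase Cdk4 was at 12.75, 12.87 and 12.80 in Mest-KO and 12.68, 12.73 and 12.66 in control. These groups did not overlap, as was true of 5 of the 36 genes and of 10.6% of all genes tested, and the difference was 0.12 (SE 0.0782). The other probe sets of Cdk4 gave -0.08 and 0.01. Cdk6, the second kinase of the D-type cyclins, was at 8.37, 8.63 and 8.62 in Mest-KO and 8.24, 8.38 and 8.48 in control, with overlap, and its probe sets gave 0.18 (SE 0.111) and 0.32 (SE 0.155). The E-type cyclins, which complete the passage into S phase, differed by 0.06 (Ccne1, SE 0.0786) and 0.05 (Ccne2, SE 0.0824), and their kinase Cdk2 by 0.09 (SE 0.102).

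Of the 12 genes of S phase and DNA replication, 3 were higher and 9 lower in Mest-KO, none passed the test, and the median difference was -0.047. These directions are those of the brightest probe set of each gene. All 3 higher genes, Mcm4, Mcm5 and Rrm2, had probe sets of both signs, as did Mcm3, Mcm7 and Tyms among the lower ones. Pcna encodes the sliding clamp of the replication fork. It was at 13.07, 12.83 and 12.87 in Mest-KO and 13.09, 13.03 and 12.97 in control, which overlap, and differed by -0.10 (SE 0.0956). The loading factors Cdc6 and Cdt1, which bring the replicative helicase to origins, differed by -0.12 (SE 0.0847) and -0.06 (SE 0.131). The helicase itself is a ring of the proteins of Mcm2 to Mcm7. Its genes differed by -0.04 (Mcm2), -0.03 (Mcm3), 0.18 (Mcm4), 0.01 (Mcm5), -0.05 (Mcm6) and -0.13 (Mcm7), with SE from 0.0972 to 0.194. A second probe set of Mcm4 differed the other way, by -0.06 (SE 0.0962). Over the probe sets above the filter, Mcm2 ran from -0.09 to -0.04 and Mcm3 from -0.20 to 0.04. Mcm6 ran from -0.07 to -0.05 and Mcm7 from -0.13 to 0.03.

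Mcm5 had the largest spread between arrays among the helicase genes. Its level was 12.03, 11.51 and 11.30 in the controls, a range that enclosed the 11.54, 11.59 and 11.75 of Mest-KO. At a second, dimmer probe set Mcm5 differed by -0.10 (SE 0.0885), and there the groups did not overlap, while another, still dimmer one gave 0.17 (SE 0.293). The genes with an E2F match differed by -0.13 to 0.09, with 2 higher and 6 lower of 8.

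Nucleotide supply was read through both subunits of ribonucleotide reductase and through thymidylate synthase. Rrm1 encodes the large subunit and differed by -0.03 (SE 0.0846). Rrm2, the small subunit that limits the enzyme in S phase, was at 13.05, 13.39 and 13.16 in Mest-KO and 13.04, 13.07 and 13.01 in control, with overlap. Its difference was 0.16 (SE 0.109), and its other probe sets gave 0.36 (SE 0.215) and -0.14 (SE 0.156). Tyms, thymidylate synthase, was at 7.83, 7.81 and 8.14 in Mest-KO and 8.36, 8.24 and 7.99 in control. Mest-KO 3 lay above control 3, so the groups overlapped, and the difference was -0.27 (SE 0.14) with an interval from -0.61 to 0.07. Other probe sets of Tyms above the filter gave -0.15 and 0.13.

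Of the 12 genes of G2 and mitosis, 5 were higher and 7 lower in Mest-KO, with a median difference of -0.023, and the intervals of all 12 lay within 1.5-fold. Ccna2 encodes cyclin A2, which acts in S phase and G2. It was at 11.78, 11.76 and 11.90 in Mest-KO and 11.57, 11.58 and 11.63 in control. Each Mest-KO pool lay above each control pool, and the difference was 0.21 (SE 0.0809), 1.16-fold, with an unadjusted p of 0.0362 and a limma adjusted p of 0.909. Its unadjusted p was 0.05 or more in 12 of 17 alternatives, among them those without Mest-KO 1, Mest-KO 3 or any 1 of the controls. The second probe set of Ccna2 was at 11.20, 10.95 and 11.20 in Mest-KO and 11.19, 11.37 and 11.12 in control. These values overlapped and differed the other way, by -0.11 (SE 0.123).

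Ccnb2, a B-type cyclin of mitosis, was at 10.87, 10.71 and 10.88 in Mest-KO and 11.02, 10.91 and 10.89 in control. Its kinase Cdk1 was at 12.29, 12.17 and 12.28 in Mest-KO and 12.29, 12.36 and 12.37 in control. In both genes the groups did not overlap, though by 0.01 or less, and the differences were -0.12 (SE 0.0891) and -0.09 (SE 0.0801). Both genes were read by a single probe set.

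Mki67 encodes the proliferation antigen Ki-67, present in cycling cells and lost from resting ones. Its level was 12.21, 12.12 and 12.08 in Mest-KO and 12.09, 12.21 and 12.13 in control, and it differed by -0.004 (SE 0.0829), with an interval from -0.205 to 0.196. Top2a, the topoisomerase that untangles replicated chromosomes, was at 12.59, 12.52 and 12.61 in Mest-KO and 12.48, 12.64 and 12.60 in control, and differed by 0.001 (SE 0.0851), with 0.25 (SE 0.238) at a much dimmer probe set. The 2 groups covered nearly the same range for both of these genes.

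The mitotic kinases Aurka, Aurkb and Plk1, which act at spindle poles, at centromeres and in mitotic entry, differed by -0.17 (SE 0.115), -0.04 (SE 0.136) and 0.04 (SE 0.114). Birc5, which encodes survivin, a partner of Aurora B, differed by 0.14 (SE 0.126). Cdc20, the activator of the anaphase-promoting complex, differed by -0.04 (SE 0.0824), and its 3 probe sets lay between -0.07 and -0.04. Of the spindle checkpoint genes, Bub1 differed by -0.10 (SE 0.0859), while a dimmer probe set of it gave 0.41 (SE 0.178) without overlap between the groups. Bub1b was at 11.56, 10.78 and 11.11 in Mest-KO and 11.06, 11.35 and 10.96 in control, a spread within each group that exceeded its difference of 0.03 (SE 0.215). Its further probe sets gave -0.10 (SE 0.0917) and -0.29 (SE 0.26). The genes of G2 and mitosis with a CHR match differed by -0.17 to 0.04, with 3 higher and 5 lower of 8.

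Of the inhibitors 3 were read, 1 with a higher and 2 with a lower value in Mest-KO and a median difference of -0.216. None passed the test, and without Mest-KO 1 the median was -0.005. Cdkn1a encodes p21, an inhibitor of cyclin-dependent kinases that is induced by p53. It was at 10.13, 10.20 and 10.40 in Mest-KO and 10.52, 10.41 and 10.45 in control, so each Mest-KO pool lay below each control pool, with Mest-KO 3 nearest to them. The difference was -0.22 (SE 0.0982), with an interval from -0.454 to 0.021 and a limma adjusted p of 0.909. A second, dimmer probe set was at 7.86, 7.51 and 7.37 in Mest-KO and 8.44, 7.83 and 7.86 in control. It differed in the same direction, by -0.46 (SE 0.217), with values that overlapped.

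Cdkn1b encodes p27, which holds cells in G1 and marks cells leaving the cycle in the developing ear. It was at 11.68, 11.90 and 11.61 in Mest-KO and 11.65, 11.57 and 11.55 in control, and differed by 0.14 (SE 0.102), while its second probe set gave -0.09 (SE 0.166). Cdkn2c encodes p18, an inhibitor of Cdk4 and Cdk6. Its signal was dim, at 5.14, 5.93 and 5.85 in Mest-KO and 6.09, 6.04 and 5.55 in control, and the difference of -0.26 (SE 0.253) had the widest interval of the 36 genes, from -0.87 to 0.355. Without Mest-KO 1 the difference was 0.00, and without control 3 it was -0.42.

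Probe sets of the same gene gave a measure of how far a single value can be read. Of the 88 probe sets, 78 lay above the filter, and their differences ran from -0.46 to 0.41 with a median of -0.025. In a fit of each probe set by itself, limma made 0 calls among the 78, whether p was adjusted or not, with the smallest unadjusted p of 0.0553 at the brighter probe set of Ccna2. Over all 27022 probe sets the shares were 0% and 3.98%. The groups did not overlap at 9 of 78 probe sets, against 9.37% over all, and the interval lay within 1.5-fold at 62 of 78, against 58.8% over all. Of the 25 genes with several probe sets above the filter, 3 had all of them higher in Mest-KO, 7 had all of them lower and 15 had both signs, with a median gap of 0.24 between the lowest and the highest. The agreement was closest in Cdc20, Mcm6, Rrm1 and Ccne1, whose probe sets differed from each other by 0.03 or less, and the gap was widest in Rrm2 and Bub1, at 0.50. The 10 probe sets below the filter, each of a different gene, ranged from -1.1 (Cdt1) to 1.37 (Rrm1).

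**Figure D3:**
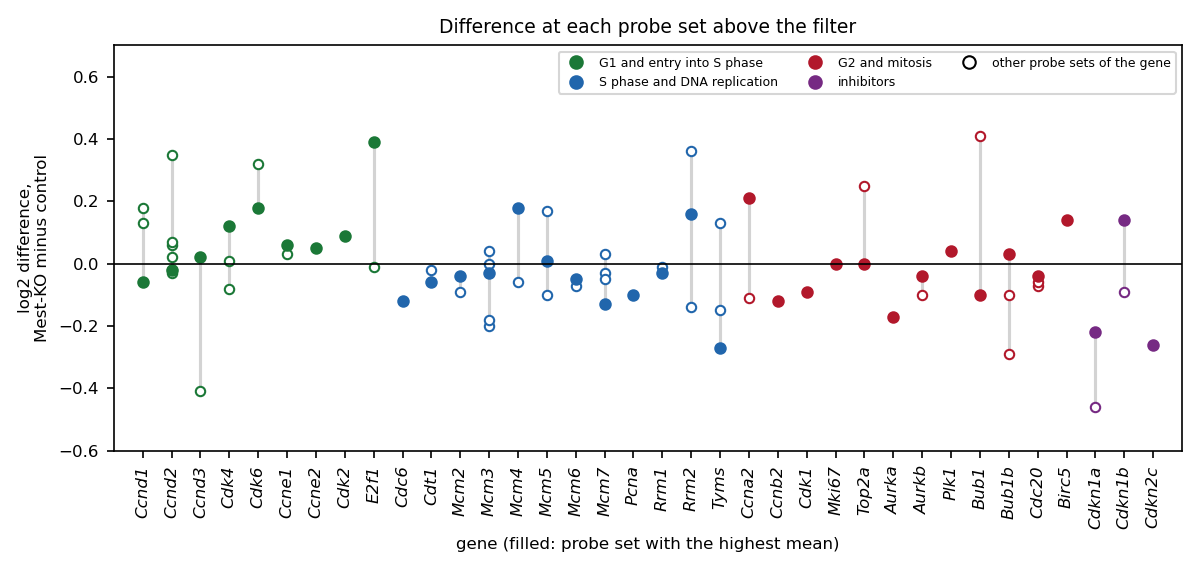
Log2 difference (Mest-KO minus control, vertical axis) at each of the 78 probe sets above the filter, by gene, with the probe set used for the gene filled and the others open. A grey line joins the probe sets of a gene, and in 15 of 25 genes with several it crosses 0.

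Between arrays, the medians of 3 phases moved by small amounts, and those of the inhibitors by more. On each array the level of every gene was set against its own mean over the 6 arrays, and the median over the genes of a phase was taken. Genes of G1 stood highest on Mest-KO 2, at 0.107, and lowest on control 1, at -0.081. Replication genes stood highest on control 1, at 0.110, and lowest on control 3, at -0.089, and the Mest-KO arrays lay between them, from -0.031 to -0.025. Genes of G2 and mitosis stood lowest on Mest-KO 2, at -0.097, and highest on control 2, at 0.068. The 3 inhibitors ran from -0.218 on Mest-KO 1 to 0.165 on control 1. In each of the 4 groups of genes the range of the controls overlapped that of Mest-KO. The median over all genes tested, which quantile normalization keeps nearly equal between arrays, stayed between -0.012 and 0.014.

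**Figure D4:**
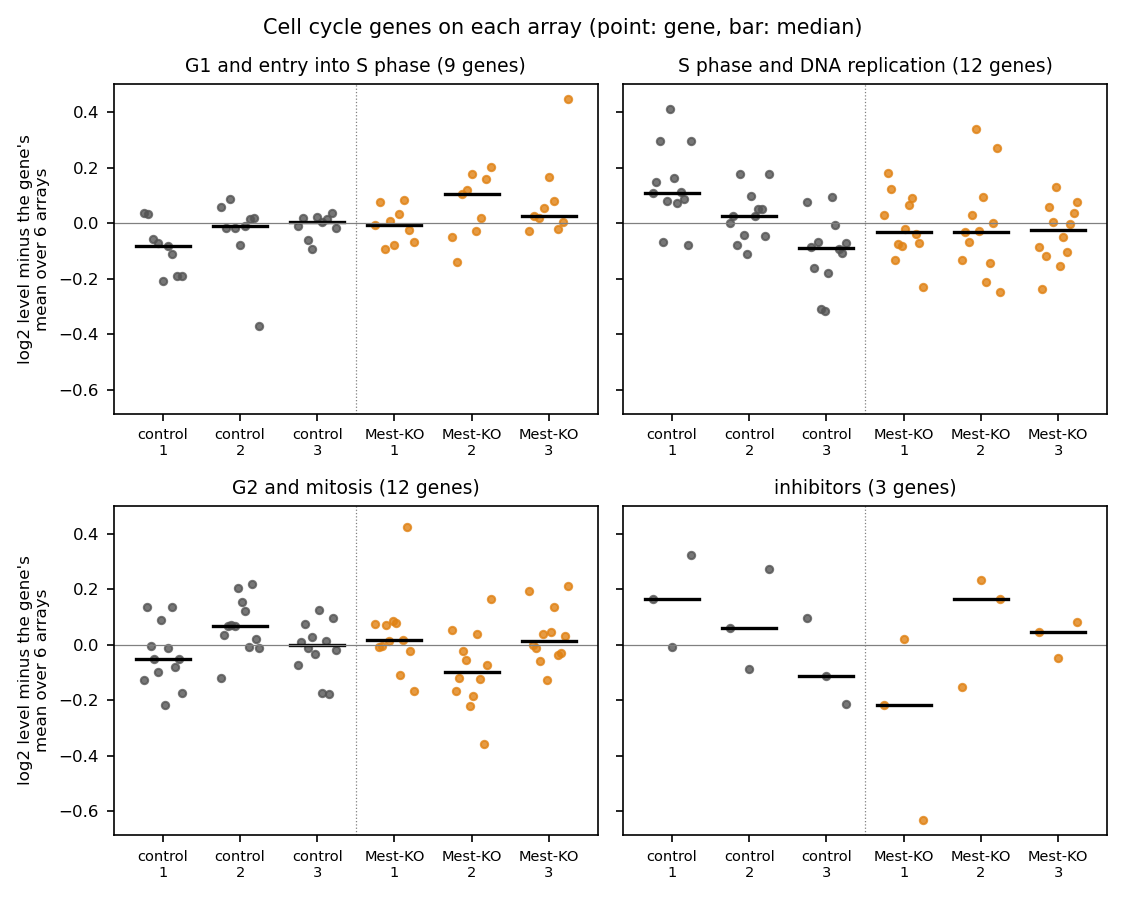
Log2 level minus the mean of the same gene over 6 arrays (vertical axis) for each gene (points) on each control (grey) and Mest-KO (orange) array, in 4 panels by phase, with the median as a bar. The medians of the G1, replication and mitosis panels stay between -0.097 and 0.110, and those of the 3 inhibitors run from -0.218 to 0.165.

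Markers of the tissue around the vesicle varied far more between arrays than the cell cycle genes did. The median of the periotic mesenchyme markers was 0.960 on Mest-KO 2 and 0.266 on Mest-KO 3, and -0.571 on Mest-KO 1. It was 0.429, 0.048 and -0.863 on the control arrays. Mest-KO 2, the array with the most mesenchyme signal, was also the one with the highest median of G1 genes and the lowest of genes of G2 and mitosis. The other arrays did not follow this order. Control 1, next in mesenchyme signal, had the lowest median of G1 genes, at -0.081. Control 3, with the least mesenchyme signal, stood at 0.006 for G1 genes and -0.002 for genes of G2 and mitosis. By this median the ganglion neuron markers were also highest on Mest-KO 2, at 0.179, and so were the 3 endothelial markers, at 0.462. By summed intensity the neuron markers were highest on Mest-KO 1, at 9251, and the endothelial markers on Mest-KO 3, at 355.7. Neurod1, a bright member of the neuron sum, was also highest on Mest-KO 1, at 1940. The markers of otic epithelium stayed between -0.093 and 0.059. The part of mesenchyme, neurons or endothelium in the levels of the cell cycle genes was not tested. Without Mest-KO 2 the median difference was 0.057 for genes of G1 and 0.017 for genes of G2 and mitosis, and 0 of 36 genes passed the test. Other omissions moved the medians as far or further. The median of G1 genes was 0.02 without control 1, that of replication genes was 0.002 without control 1 and -0.117 without control 3, and that of genes of G2 and mitosis was -0.066 without Mest-KO 1 and 0.028 without control 2.

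**Figure D5:**
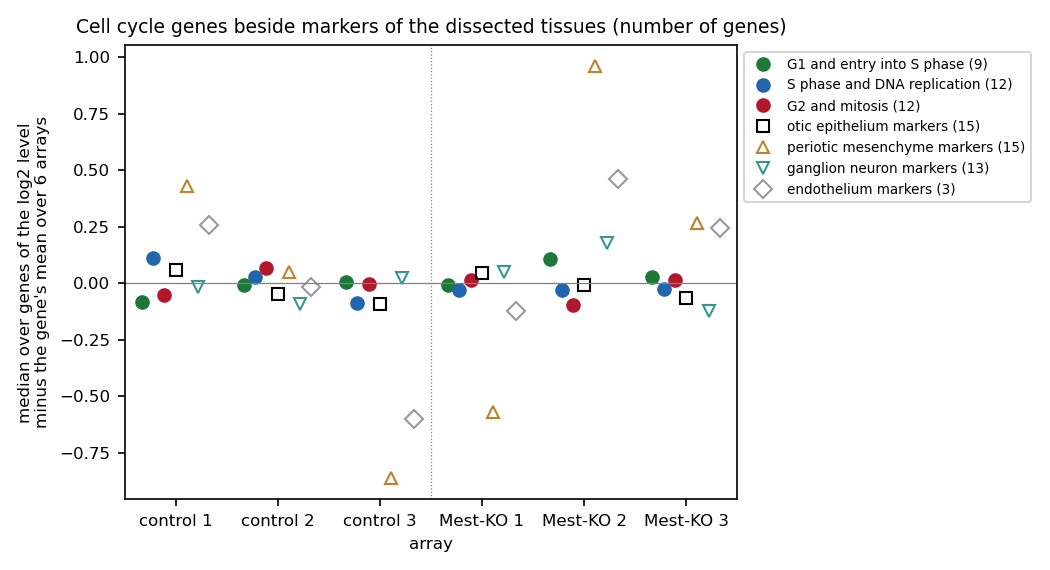
Median over genes of the log2 level minus the mean of the same gene over 6 arrays (vertical axis), for 3 phases of the cell cycle genes (filled circles) and 4 marker lists (open symbols) on each array. The cell cycle phases and the otic epithelium markers stay close to 0, while the mesenchyme markers run from -0.863 to 0.960.

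Other genes of the same pathway were read from lists of 146 genes, of which 137 were tested. None passed the test, 63 were higher and 74 lower in Mest-KO, the median difference was -0.022, and 4 (1 higher and 3 lower) had an unadjusted p under 0.05, where 5.14% of all genes did. Among 23 other genes of G1 and of E2F control, 8 were higher and 15 lower, with the smallest p for Mycl (-0.19, SE 0.0885), a Myc family transcription factor gene, and Mybl2 (-0.24, SE 0.174), a transcription factor gene of the late cycle. Among 42 other replication genes, 18 were higher and 24 lower. Of these Brca1, a DNA repair gene, had a difference of -0.21 (SE 0.0914), while further probe sets of it above the filter gave 0.02 and -0.26, and Orc5, of the origin recognition complex, by 0.25 (SE 0.106).

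Among 51 other genes of G2 and mitosis, 24 were higher and 27 lower. Melk, a kinase gene of dividing cells, was at 10.20, 9.92 and 10.02 in Mest-KO and 10.34, 10.29 and 10.53 in control. These groups did not overlap, and the difference was -0.34 (SE 0.113, limma adjusted p of 0.909). Cdc25c, a phosphatase that activates Cdk1, differed by -0.25 (SE 0.0867), also without overlap, while another of its probe sets gave 0.01. The remaining gene of this list with an unadjusted p under 0.05 was Dlgap5, a spindle protein gene outside the rule for named genes, at -0.235 (SE 0.0854).

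Among 5 other inhibitors, Btg2 differed by -0.20 (SE 0.126) and Cdkn1c, which encodes p57, by -0.16 (SE 0.123). Of 16 targets of p53, 11 were higher and 5 lower in Mest-KO, with a median of 0.057. Trp53inp1, a p53 target that takes part in cell death and autophagy, was at 12.25, 12.43 and 12.31 in Mest-KO and 12.06, 12.07 and 12.09 in control. The groups did not overlap, and the difference was 0.26 (SE 0.0832, limma adjusted p of 0.909), against -0.04 at its second, dimmer probe set. Sesn1, a stress-response gene, differed by 0.25 (SE 0.128), and its further probe sets above the filter gave 0.16, 0.00 and 0.92. The last of these was dim, with a mean level of 5.22. Over the 16 targets the differences ran from -0.39 to 0.26. Cdkn1a, a target of p53 counted here with the inhibitors, lay in the opposite direction from Trp53inp1 and Sesn1. None of these 3 genes passed the test.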

How the data were processed

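The members and gene lists were chosen with earlier results of these data known. Per the submitters' processing notes the authors used Affymetrix Expression Console 1.1. The deposited values are linear probe set intensities, and on every array their mean after trimming 2% from each end was 500. How probes were summarised and background handled was not given in the sources used here. RNA was labelled from 300 ng of total RNA. The table held 45101 probe sets, of which 64 controls were left out. The annotation gave 1 symbol to 34945, several to 932 and none to 9160. For 34741 probe sets with 1 symbol, the symbol was taken from RefSeq through the gene identifier, whether or not it changed. A floor of 1 was applied before log2 and quantile normalization. A gene was represented by its brightest probe set on average and kept above the 40th percentile (an intensity of 34.4), which left 12462 genes and 27022 probe sets. Mest-KO was set against control by limma 3.58.1 (R 4.3.3), using lmFit and eBayes with neither trend nor covariates and a Benjamini-Hochberg adjusted p under 0.05. Probe sets were fitted the same way. Only the limma fit was tested on simulated data, with independent noise. That test did not cover normalization, the filter or the choice of probe sets. All members are named, with up to 2 genes of smallest p from each further cell cycle list. Promoters came from RefSeq tables. The alternatives were other normalizations, floors, filters and probe set rules, a variance trend, array weights, a replicate block, leaving out each array and leaving out the pools of one sex. The number of arrays limits the precision. Between any pair of arrays, at most 1 of the 45101 probe sets had exactly the same deposited value, with no tolerance. Plots used matplotlib 3.10.9 (Python 3.11.15).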

Additional observations from a re-analysis of the deposited data

How the results depend on the processing

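In the 17 alternatives run, 0 of the cell cycle genes and 0 of their probe sets passed at an adjusted p under 0.05, and the smallest adjusted p of a member was 0.557 (E2f1 without Mest-KO 1). Over all genes the count, 0 as reported, was 25 with median centring, 7 with the filter at the 60th percentile, 1 with the most variable probe set and 13 with limma's trend. The count of members at an unadjusted p under 0.05, 1 as reported (Ccna2), was 0 with median centring, 0 without a filter, 0 with the most variable probe set, 2 with the filter at the 60th percentile, 2 with array weights and 3 with the trend (Ccna2, E2f1 and Cdkn1a), and lay between 0 and 2 when single arrays were omitted (0 without control 1 or control 2, 2 without Mest-KO 1, Mest-KO 3 or control 3, none of which was Ccna2). Where the count was 1, the gene was E2f1 with the deposited scaling alone and without the pools of one sex, Cdkn1a with the mean of probe sets, and Ccna2 with the floor at 16 and without Mest-KO 2. The unadjusted p of Ccna2 was under 0.05 in 5 of the 17 alternatives and not in the other 12. That of E2f1 was under 0.05 in 8 alternatives and not in 8, and E2f1 was not tested with the most variable probe set. Those under 0.05 included the filter at the 60th percentile, array weights, and leaving out Mest-KO 1 or control 3. The deposited median intensity was 91 on Mest-KO 3 and 62.1 to 71 on the other arrays. Median centring sets these medians to a common value. It moved the median of all genes to -0.136, so values under it are read against that shift. It gave medians of -0.188 for all members, -0.086 for G1, -0.210 for replication and -0.194 for G2 and mitosis. The median of all members was 0.026 with the mean of probe sets and -0.003 without the pools of one sex, and lay between -0.045 and 0.007 when single arrays were omitted, the highest without control 2. Without the pools of one sex the medians were 0.120 for G1 and 0.065 for the inhibitors, which had -0.039 with the filter at the 60th percentile, where fewer of them were tested, and from -0.292 to -0.005 with an array left out, the last without Mest-KO 1. The difference of Tbx1, -0.03 as reported, lay between -0.14 and 0.06 when single arrays were omitted, and was -0.22 without the pools of one sex and -0.17 with median centring.

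Signs of small differences turned, and the cause was not tested unless stated. With median centring the values were -0.12 (Ccnd3), -0.07 (Cdk4), -0.09 (Ccne1), -0.09 (Ccne2), -0.06 (Cdk2), -0.01 (Mcm4), -0.14 (Mcm5), -0.05 (Rrm2), -0.18 (Top2a), -0.10 (Plk1), -0.13 (Bub1b), -0.06 (Birc5) and -0.02 (Cdkn1b). With the mean of probe sets, which takes in those below the filter, they were 0.08 (Ccnd1), 0.06 (Ccnd2), -0.17 (Cdk6), -0.08 (E2f1), 0.39 (Mcm6), 0.44 (Rrm1), 0.18 (Tyms), 0.15 (Aurka), 0.16 (Bub1) and -0.12 (Bub1b). With the most variable probe set they were 0.13 (Ccnd1), 0.35 (Ccnd2), -0.11 (Ccna2), 0.41 (Bub1), -0.29 (Bub1b) and -0.09 (Cdkn1b), and 26 of the 36 genes stayed above the filter. Array weights gave -0.01 (Top2a) and -0.02 (Bub1b), the deposited scaling alone -0.03 (Top2a), and the pools of both sexes 0.11 (Mcm3), 0.00 (Rrm1), -0.06 (Bub1b) and 0.06 (Cdkn2c). With an array left out the sign turned in Ccnd2 (-0.07 to 0.04), Ccnd3 (-0.03 to 0.07), Cdt1 (-0.17 to 0.04), Mcm2 (-0.13 to 0.10), Mcm3 (-0.07 to 0.05), Mcm5 (-0.14 to 0.22), Mcm6 (-0.16 to 0.01), Rrm1 (-0.08 to 0.01), Mki67 (-0.04 to 0.03), Top2a (-0.05 to 0.03), Aurkb (-0.16 to 0.04), Plk1 (-0.03 to 0.11) and Bub1b (-0.18 to 0.21). Deviations of same-numbered arrays from their group means had correlations of -0.109, -0.00832 and -0.00734, and those of differently numbered arrays ran from -0.1 to 0.11. Centring on the mean of only 3 arrays ties these values to each other, so they cannot show whether the numbers pair the arrays. The replicate block gave 0 genes, 0 members at the adjusted threshold and 1 member, E2f1, at the unadjusted one.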
